A study of Homo sapiens with 14 samples.

Results

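MALAT1 and NEAT1 are long noncoding RNA genes that lie next to each other on human chromosome 11 and whose RNAs stay in the nucleus. They were taken as the 2 rows that carry these symbols in a table of read counts for 58780 genes, and they were read in all 14 libraries. The libraries are precision run-on sequencing (PRO-seq) of A549 cells, a human lung adenocarcinoma line. In PRO-seq, engaged RNA polymerases in permeabilized cells add labelled nucleotides, and the labelled RNA is captured and sequenced. The 7 groups held 2 libraries each, and all groups carried 0.01% DMSO. The sample titles of the untreated cells name a time of 15 min. Cells were given 1 µM GSK591, an inhibitor of the arginine methyltransferase PRMT5, or 1 µM MS023, an inhibitor of the type I arginine methyltransferases, for 15 min or for 3 h. In the remaining groups GSK591 or MS023 was given together with 100 nM dexamethasone (Dex), a synthetic glucocorticoid, for 15 min. Neither Dex by itself nor a 3 h untreated culture was analysed here, so an inhibitor and the length of the treatment cannot be told apart in the 3 h groups.

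MALAT1 RNA is one of the most abundant long noncoding RNAs of mammalian cells. It gathers in nuclear speckles, which are bodies rich in splicing factors, and its name comes from lung adenocarcinoma. NEAT1 RNA is the scaffold of paraspeckles, nuclear bodies built on its long isoform by RNA-binding proteins such as NONO and SFPQ. A short isoform shares the 5′ part of the long one and ends at a poly(A) signal. Neither MALAT1 nor the long NEAT1 isoform ends in an added poly(A) tail. RNase P cuts each precursor just upstream of a tRNA-like RNA, and the new 3′ end is guarded by a triple helix that an A-rich tract forms with U-rich motifs. Arginine methyltransferases modify many RNA-binding proteins of both bodies.

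NEAT1 (ENSG00000245532.8) spans chr11:65422774-65445540 on the plus strand of GRCh38 in GENCODE release 29, which is 22767 bases. MALAT1 (ENSG00000251562.8) spans chr11:65497688-65506516 on the same strand, which is 8829 bases, and 52147 bases lie between the genes. Annotated exons cover the whole span of each gene, over 8 transcripts for NEAT1 and 17 for MALAT1. The short and long NEAT1 isoforms share 1 count and cannot be separated. The sequences that set these genes apart from genes with ordinary poly(A) tails are their 3′ ends, shown here as the last 100 bases before the cut, as DNA from the GENCODE transcripts. Capitals mark stretches of at least 8 bases found in both. The MALAT1 stretch is chr11:65506017-65506116 and the NEAT1 stretch is chr11:65445441-65445540, both exonic and on the plus strand.
MALAT1: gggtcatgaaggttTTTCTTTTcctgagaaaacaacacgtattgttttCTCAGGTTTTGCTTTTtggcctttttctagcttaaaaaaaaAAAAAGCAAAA
NEAT1: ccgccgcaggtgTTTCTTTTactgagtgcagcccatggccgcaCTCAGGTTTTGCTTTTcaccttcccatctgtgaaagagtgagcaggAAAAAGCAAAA
The shared letters form 3 stretches of 35 bases in all, in the same order: a first T-rich stretch, a second T-rich stretch, and the A-rich tract that closes each RNA. A global alignment of both ends had 69 identical bases over 109 columns (63.3%). The tRNA-like RNAs begin at the next base and are printed with the same marking, since only the one beside NEAT1 has counts of its own. The MALAT1 product, called mascRNA, is chr11:65506117-65506173 and the NEAT1 product is chr11:65445541-65445598.
mascRNA: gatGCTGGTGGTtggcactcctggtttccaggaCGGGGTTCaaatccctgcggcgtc
NEAT1 product: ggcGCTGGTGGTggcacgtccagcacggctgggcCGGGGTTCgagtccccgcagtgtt
These small RNAs share 2 stretches of at least 8 bases, 17 bases in all, and had 41 identical bases over 61 alignment columns (67.2%).

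Total counts per library ran from 5768312 to 9606938, of which mitochondrial genes took 39.8% to 58.0%. The second library of GSK591 with Dex stood apart, with the highest mitochondrial share (58.0%) and the lowest scaling factor (0.81). Its pair differed by a chi-square of 13.4 per degree of freedom, against 2 to 5.38 in the other 6 pairs. Comparisons of the members with Dex, their spread and closest patterns, and the Dex calls of nearby genes are given with and without it. For the spread, the patterns and the nearby genes, leaving it out was chosen after seeing the data. Levels are in CPM, which are counts scaled to library size. Of 5 epithelial markers (EPCAM, KRT8, KRT18, KRT19, CDH1) 5 passed the expression filter, at a summed 385 to 522 CPM of all counts. Most of that was KRT8 and KRT18 (means of 302 and 141 TMM-scaled CPM), whose annotated exons overlap. KRT19 averaged 18.7, EPCAM 2.80 and CDH1 2.20 CPM. Of 5 alveolar markers 3 passed: SFTPB (14.3 CPM), NAPSA (6.74) and SFTPC (2.53). NKX2-1 was at no more than 3 counts and SFTPA1 at no more than 2. Of 8 markers of blood, endothelial, fibroblast and liver cells 1 passed (COL1A1, 6.72 CPM) and CD3E was at 0. Nothing in the labels says that replicates came from separate days or passages, so the p-values cannot speak for separate experiments.

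Both genes were among the most strongly counted in the nuclear genome. All levels that follow are CPM on TMM-scaled library sizes. In untreated cells MALAT1 stood at 2715 ± 251 CPM and NEAT1 at 1742 ± 102 CPM (SD, n = 2), ranks 9 and 14 among 21881 nuclear genes. Per kilobase of exon, MALAT1 stood at 307.5 ± 28.4 CPM per kb and NEAT1 at 76.5 ± 4.5 CPM per kb. Among 18003 nuclear genes with at least 1 kb of exon these levels ranked 7 and 46. Among 2519 noncoding RNA genes of that length they ranked 3 and 5. The noncoding genes above MALAT1 were FP236383.1 (1050 CPM per kb) and FP671120.1 (1034 CPM per kb), both on chromosome 21. Both are genes of the ribosomal DNA repeats. The other nuclear genes above MALAT1 per kilobase were MTCO1P12, MTND2P28, MTRNR2L12 and MTRNR2L8, which are copies of mitochondrial genes. SNHG3 (80.2 CPM per kb) stood between MALAT1 and NEAT1 among the noncoding genes. Of 19 other well known long noncoding RNA genes examined, the highest by mean CPM were NORAD (130 CPM), KCNQ1OT1 (102 CPM) and PVT1 (48.0 CPM). NORAD binds PUMILIO proteins, KCNQ1OT1 is the imprinted antisense RNA of KCNQ1, and PVT1 neighbours MYC. Per kilobase in untreated cells, MIR31HG was the highest of that list at 41.5 CPM per kb, followed by NORAD at 27.8 CPM per kb. Both lay below both members.

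MALAT1 varied widely between libraries. The untreated libraries stood at 2538 and 2892 CPM. With GSK591 for 15 min the level was 3275 and 4037 CPM, and with MS023 for 15 min it was 2465 and 2919 CPM. GSK591 with Dex gave 2656 and 4606 CPM, the widest pair, and MS023 with Dex gave 3444 and 3032 CPM. After 3 h, GSK591 gave 3009 and 1896 CPM and MS023 gave 1728 and 1804 CPM, the lowest pair. The highest library was thus the one that stood apart on mitochondrial share, and the lowest 3 were 3 h libraries. By group mean the order was GSK591 15 min (3656 ± 539 CPM), GSK591 with Dex (3631 ± 1379), MS023 with Dex (3238 ± 291), untreated (2715 ± 251), MS023 15 min (2692 ± 321), GSK591 3 h (2453 ± 787) and MS023 3 h (1766 ± 53.4; SD, n = 2 each). Most neighbours in that order overlapped. The exceptions were untreated cells, whose libraries lay wholly below those of MS023 with Dex, and MS023 3 h, whose libraries lay wholly below those of GSK591 3 h. The counting error of a single library was 0.54% to 0.88% of the MALAT1 level, less than the gap between the libraries of each pair.

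**Figure D1:**
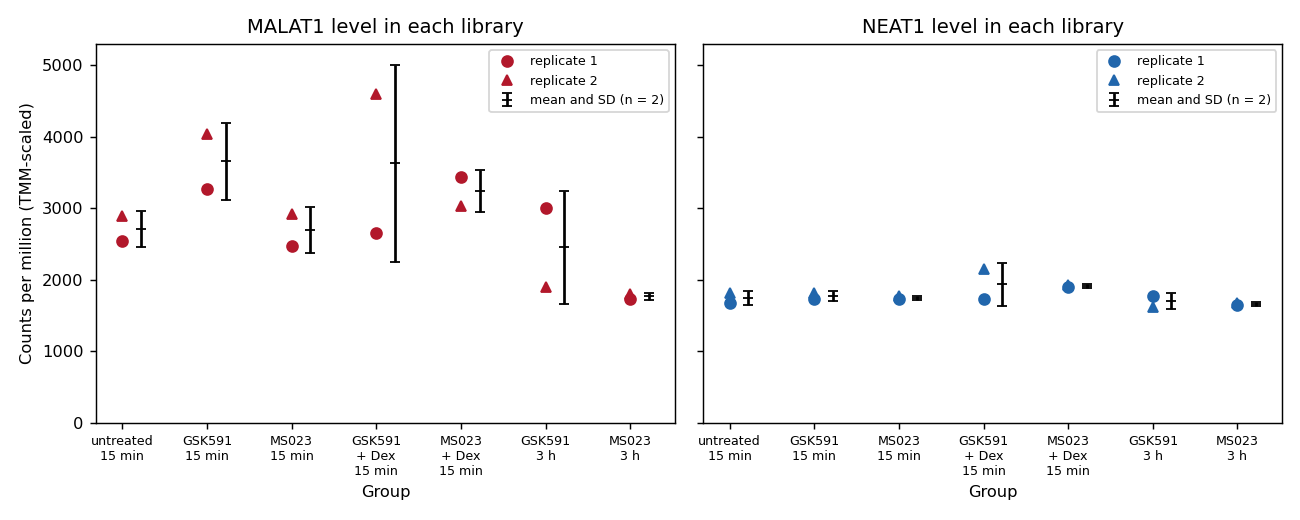
TMM-scaled CPM of MALAT1 (left) and NEAT1 (right) in each of the 14 libraries by group, with replicate 1 as circles, replicate 2 as triangles, and black marks for the mean and SD of the 2 libraries. MALAT1 ran from 1728 to 4606 CPM and was lowest with MS023 for 3 h, whereas all NEAT1 libraries lay between 1623 and 2143 CPM.

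MALAT1 was lower after 3 h of inhibitor than after 15 min. Over both inhibitors it was lower at 3 h by 0.59 ± 0.13 on the log2 scale (SE; log2 fold change -0.59, 95% interval -0.86 to -0.33), with an edgeR adjusted p of 0.001. In that comparison 18.1% of the 21910 genes tested were called at an adjusted p under 0.05 (8% of all genes tested were called lower), and 10.4% had a larger change in either direction. Of the 4 libraries at 3 h, 3 lay below all 4 at 15 min, and the fourth, GSK591 3 h replicate 1 at 3009 CPM, lay among them. With MS023 the fall was to 1728 and 1804 CPM from 2465 and 2919 CPM, with no overlap (log2 fold change -0.61 ± 0.19 SE, edgeR adjusted p 0.025; 12% of genes called). With GSK591 the levels went to 3009 and 1896 CPM from 3275 and 4037 CPM, also with no overlap, and the log2 fold change of -0.58 ± 0.19 missed the threshold (edgeR adjusted p 0.054; 6.41% of genes called). The difference between these time effects was 0.03 ± 0.26 (SE, 95% interval -0.50 to 0.56; edgeR adjusted p 0.99; 0.561% of genes called). No difference between the inhibitors was shown, and the interval is wide. All these edgeR standard errors are smaller than the replicates of MALAT1 alone would give.

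Against untreated cells, MALAT1 was called in 1 of 6 comparisons. With MS023 for 3 h it fell to 1728 and 1804 CPM from 2538 and 2892 CPM, with no overlap (log2 fold change -0.62 ± 0.19 SE, edgeR adjusted p 0.03). In that comparison 7.63% of genes were called and 2.23% were called lower. The calls with MS023 alone were lost when edgeR's robust moderation of the spread, added after the spread of MALAT1 was seen, was used (adjusted p 0.2 against untreated and 0.17 against 15 min). DESeq2 gave an adjusted p of 0.29 and 0.24, while the averaged comparison kept its call in both (adjusted p 0.045 and 0.049). With GSK591 for 3 h the log2 fold change against untreated was -0.15 ± 0.19 (edgeR adjusted p 0.7; 11% of genes called), and the groups overlapped. That value rests on single libraries: it was -0.51 (adjusted p 0.17) without GSK591 3 h replicate 1 and 0.14 (adjusted p 0.81) without replicate 2.

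The remaining comparisons left MALAT1 uncalled. With GSK591 for 15 min both libraries (3275 and 4037 CPM) lay above both untreated ones, with a log2 fold change of 0.43 ± 0.19 (SE, edgeR unadjusted p 0.026, adjusted p 0.63; 0.306% of genes called). With MS023 for 15 min the groups overlapped, with a log2 fold change of -0.01 ± 0.19 (edgeR adjusted p 0.99; 0.183% of genes called). At matched dose, the GSK591 libraries lay above the MS023 libraries at both times. The log2 difference was 0.44 ± 0.19 at 15 min (95% interval 0.07 to 0.82; edgeR adjusted p 0.39; 1.09% of genes called) and 0.47 ± 0.19 at 3 h (95% interval 0.10 to 0.85; adjusted p 0.72; 0% of genes called). Neither passed after adjustment over all genes. The difference at 3 h was 0.11 without GSK591 3 h replicate 1 and 0.77 (adjusted p 0.37) without replicate 2. Across 16 comparisons MALAT1 had an unadjusted edgeR p under 0.05 in 8 and was called in 3. The 3 called comparisons share the MS023 3 h libraries.

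Dex gave no called change of MALAT1 beside either inhibitor. Beside GSK591 the log2 fold change was -0.01 ± 0.19 (edgeR adjusted p 0.99; 3.7% of genes called), with overlapping libraries. Without the GSK591 and Dex library that stood apart it was -0.45 ± 0.18 (adjusted p 0.25). Beside MS023 both Dex libraries (3444 and 3032 CPM) lay above those without Dex (2465 and 2919 CPM), and the log2 fold change was 0.27 ± 0.19 (adjusted p 0.46; 8.97% of genes called). The Dex effects differed by -0.28 ± 0.26 between the inhibitors (adjusted p 0.79; 1.15% of genes called), and by -0.73 ± 0.23 without that library (adjusted p 0.16). Averaged over the inhibitors, the log2 fold change with Dex was 0.13 ± 0.13 (edgeR adjusted p 0.61; 12.5% of genes called) and -0.08 ± 0.11 without that library. Against untreated cells, GSK591 with Dex gave 0.42 ± 0.19 (adjusted p 0.2; 5.85% of genes called) and -0.02 ± 0.17 without that library. MS023 with Dex gave 0.25 ± 0.19 (adjusted p 0.51; 7.66% of genes called).

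NEAT1 stayed in a narrow range. Its libraries stood at 1670 and 1815 CPM untreated, 1726 and 1816 CPM with GSK591 for 15 min, and 1728 and 1768 CPM with MS023 for 15 min. GSK591 with Dex gave 1725 and 2143 CPM and MS023 with Dex gave 1896 and 1931 CPM. After 3 h the level was 1778 and 1623 CPM with GSK591 and 1643 and 1677 CPM with MS023. The highest library was again the one that stood apart on mitochondrial share, and the highest NEAT1 library was 1.32 times the lowest, against 2.67 times for MALAT1. By group mean the order ran from GSK591 with Dex (1934 ± 295 CPM) and MS023 with Dex (1913 ± 24.4) down to GSK591 3 h (1700 ± 110) and MS023 3 h (1660 ± 24.6; SD, n = 2 each). All neighbours in that order overlapped except MS023 with Dex, which lay above GSK591 15 min.

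NEAT1 was called in 0 of 16 comparisons by edgeR, and in 0 of them was its unadjusted p under 0.05. DESeq2 also called it in none. Its log2 fold changes ran from -0.07 to 0.15. Between 3 h and 15 min, averaged over the inhibitors, the log2 fold change was -0.07 ± 0.09 (SE, 95% interval -0.26 to 0.12; edgeR adjusted p 0.69), so a change of the size seen for MALAT1 lies outside the interval. Dex, averaged over the inhibitors, gave 0.13 ± 0.09 (95% interval -0.06 to 0.32; edgeR adjusted p 0.43) and 0.06 ± 0.09 without the library that stood apart. Both MS023 libraries with Dex (1896 and 1931 CPM) lay above both without it (1728 and 1768 CPM), at a log2 fold change of 0.13 ± 0.13 (adjusted p 0.65).

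**Figure D2:**
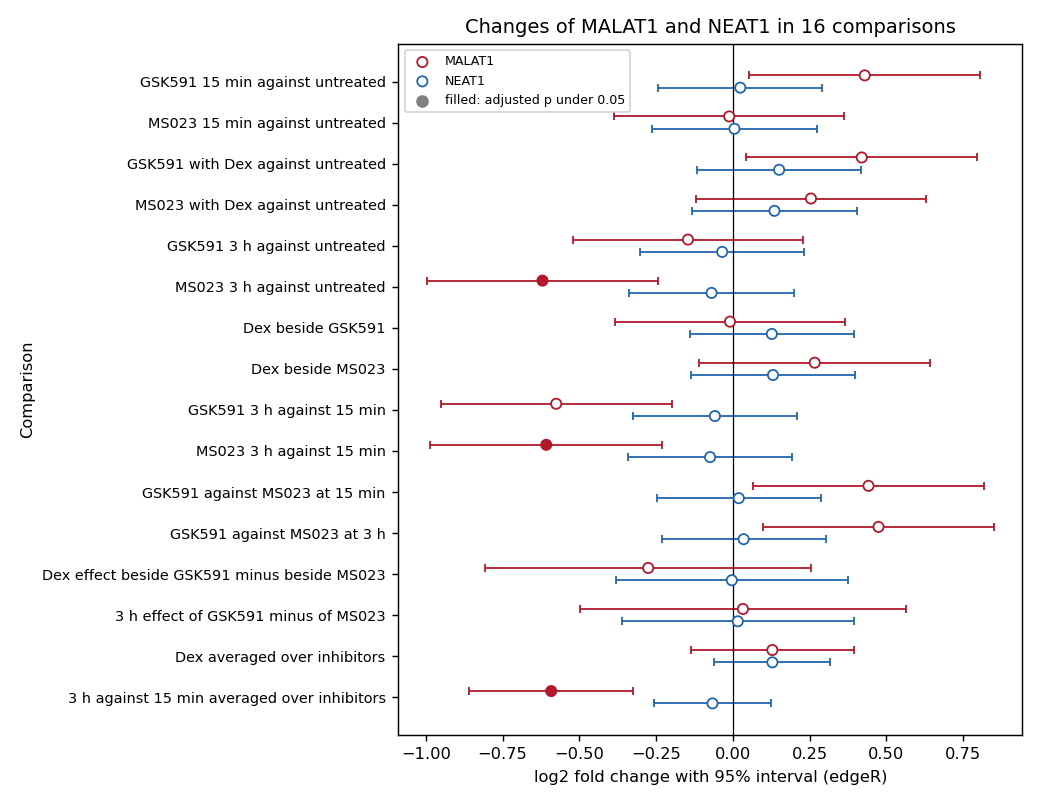
edgeR log2 fold changes of MALAT1 (red) and NEAT1 (blue) with 95% intervals in the 16 comparisons, filled where the adjusted p was under 0.05. MALAT1 was filled in 3 comparisons, all on the lower side, and NEAT1 in 0. These 3 comparisons share the MS023 3 h libraries and are not independent.

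The ratio of MALAT1 to NEAT1 counts within a library needs no scaling between libraries. It was 1.52 and 1.59 in untreated cells, 1.90 and 2.22 with GSK591 for 15 min, and 1.43 and 1.65 with MS023 for 15 min. With Dex it was 1.54 and 2.15 beside GSK591 and 1.82 and 1.57 beside MS023. After 3 h it was 1.69 and 1.17 with GSK591 and 1.05 and 1.08 with MS023. MALAT1 had more counts than NEAT1 in all 14 libraries, and the MS023 3 h libraries came closest to equal counts. The mean log2 ratio was lower by 0.54 at 3 h than at 15 min of inhibitor alone (log2 difference -0.54; exact two-sided permutation test of 4 against 4 libraries, p = 0.086, adjusted over 2 tests 0.17). The smallest p that this design allows is 0.029, and 1 of the 3 h libraries lay within the 15 min range. The test and that range pool the inhibitors. Within each inhibitor both 3 h ratios lay below both 15 min ratios, which was not tested. With Dex against without, the difference was -0.02 (exact two-sided permutation test, p = 0.91, adjusted 0.91), and -0.12 (exact p = 0.51) without the GSK591 and Dex library that stood apart.

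**Figure D3:**
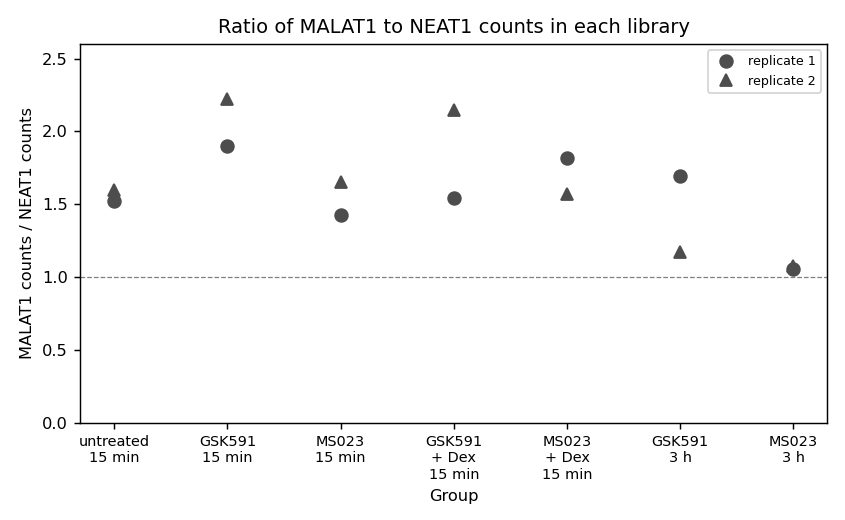
Ratio of MALAT1 to NEAT1 counts in each library by group, with replicate 1 as circles and replicate 2 as triangles, and a dashed line at equal counts. All 14 libraries lie above the line, from 1.05 with MS023 for 3 h to 2.22 with GSK591 for 15 min.

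MALAT1 varied more between libraries than NEAT1. Over the 14 libraries the SD of log2 CPM was 0.41 for MALAT1 and 0.11 for NEAT1, beside a median of 0.16 over the 456 nuclear genes that averaged 100 CPM or more. Of those genes, 94.5% varied less than MALAT1 and 16.2% varied less than NEAT1. Within groups, which takes out the treatments, the SD was 0.30 for MALAT1 and 0.10 for NEAT1, beside a median of 0.09, and 97.8% and 63.4% of the genes varied less. There were 18 other nuclear genes with at least 1000 CPM, closer to the members' own level. Their SD over libraries ran from 0.24 to 1.78 with a median of 0.41. All 18 are copies of mitochondrial genes, such as MTCO1P12, or genes of the ribosomal DNA repeats, such as RNA5-8SN2. They are thus unlike the members in more than level. MALAT1 lay in the middle of these, with 10 of the 18 varying less, and 0 of the 18 varied less than NEAT1. Within groups, 16 of the 18 varied less than MALAT1. Without the GSK591 and Dex library that stood apart, the SD over 13 libraries was 0.37 for MALAT1 and 0.08 for NEAT1. Within groups it was then 0.23, above 96.4% of the genes of 100 CPM or more, and 0.05, above 12.8% of them. The edgeR standard error of 0.19 for MALAT1 in a comparison of pairs shares information across genes. It is smaller than the replicates of MALAT1 alone, with their within-group SD of 0.30, would give. The edgeR intervals and p-values of MALAT1 thus rest on a spread below its own. The authors' deposited DESeq2 tables give MALAT1 a standard error of 0.386.

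**Figure D4:**
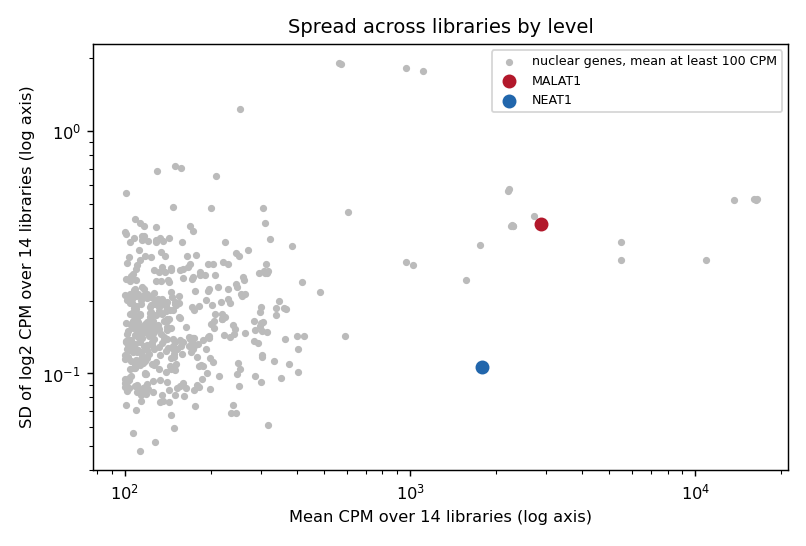
SD of log2 CPM over the 14 libraries against mean CPM for the 456 nuclear genes that averaged 100 CPM or more (both axes log), with MALAT1 in red and NEAT1 in blue. MALAT1 (SD 0.41) lies among the more variable of the strongly counted genes. NEAT1 (SD 0.11) lies below the genes plotted nearest to it in level, which are copies of mitochondrial genes or genes of the ribosomal DNA repeats.

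The genes whose pattern over the 14 libraries was closest to a member were ranked by the root mean square difference of centred log2 CPM, among the 9983 genes that averaged 10 CPM or more. Since this rule used the same libraries, the values are a description with no test. For MALAT1 the closest were PNN (0.14), LUC7L3 (0.17), SREK1 (0.17), GOLGA8A (0.19) and EZR (0.22). PNN encodes pinin, a protein of nuclear speckles, LUC7L3 and SREK1 encode splicing factors, GOLGA8A is a golgin family gene with near-identical copies, and EZR encodes the membrane linker ezrin. PNN stood at 80.1 and 94.9 CPM in untreated cells, 77.4 and 123 CPM with GSK591 and Dex, and 56.6 and 59.6 CPM with MS023 for 3 h. As for MALAT1, its highest library was GSK591 with Dex replicate 2 and its lowest was MS023 3 h replicate 1. SREK1 stood at 42.3 and 45.1 CPM in untreated cells, 36.8 and 28.4 CPM with GSK591 for 3 h, and 26.7 and 29.6 CPM with MS023 for 3 h. The exons of PNN, LUC7L3, SREK1 and EZR overlap another annotated gene, so their counts carry that uncertainty.

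NEAT1 ranked 599 of 9983 among the genes most like MALAT1, with a root mean square difference of 0.32. The genes closest to NEAT1 differed from it by less: SAP30BP (0.06), STAG3L5P (0.06), PAPPA (0.06), HDAC5 (0.06) and RBPMS (0.06). SAP30BP encodes a SAP30-binding protein and HDAC5 a class II histone deacetylase, while PAPPA encodes a protease of the IGF pathway, RBPMS an RNA-binding protein, and STAG3L5P is a pseudogene. PAPPA stood at 101 and 103 CPM in untreated cells and 98.1 and 106 CPM with MS023 for 3 h, and HDAC5 at 91.5 and 88.9 CPM and 88.1 and 86.6 CPM. MALAT1 ranked 8699 of 9983 among the genes most like NEAT1. Without the GSK591 and Dex library that stood apart, 4 of the 5 genes closest to MALAT1 and 3 of the 5 closest to NEAT1 were the same, and the members ranked 1074 and 8869 of 10047 for each other.

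The table also lists 7 genes inside the members, and all of them had 0 counts in all 14 libraries. Inside NEAT1 these are MIR612 and 3 conserved RNA elements (484 bases, 2.13% of the gene). Inside MALAT1 they are mascRNA, 1 conserved RNA element and the antisense gene AP000769.2 (548 bases, 6.21% of the gene). Such rows share all their bases with an exon of a member, and how reads in shared bases were counted is not given in the sources used here, so a count of 0 there cannot be read as no transcription. The tRNA-like RNA beside NEAT1, printed above, begins 1 base past the NEAT1 exon and did have counts of its own, from 23 to 54 per library with a median of 43.5. It stood at 3.44 and 5.15 CPM in untreated cells and 5.89 and 5.13 CPM with MS023 for 3 h, and these groups overlapped. Between 3 h and 15 min, averaged over the inhibitors, its log2 fold change was 0.02 ± 0.19 (SE; edgeR adjusted p 0.96), beside -0.07 for NEAT1.

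Within 250 kb of the members the annotation lists 44 other genes, of which 29 passed the expression filter. Between 3 h and 15 min, averaged over the inhibitors, 10 of the 29 were called higher and 1 lower, beside 10.1% and 8% of all genes, and their median log2 fold change was 0.20 against -0.01 over all genes. The largest rises were at TIGD3 (1.33 ± 0.15 SE, edgeR adjusted p 9.9e-09), a gene derived from a transposase, and at FAM89B (1.31 ± 0.22, adjusted p 2.3e-05). Both were weakly counted, at 5.87 and 2.17 CPM after 15 min. SPDYC (0.82), CDC42EP2 (0.72), AP003068.2 (0.64), SSSCA1-AS1 (0.39), SIPA1 (0.36), EHBP1L1 (0.35), DPF2 (0.28) and MAP3K11 (0.20) also rose. Of these, SPDYC, CDC42EP2 and AP003068.2 were weakly counted as well, at 3.57, 3.64 and 6.14 CPM after 15 min. SLC22A20P was the gene that fell, by 0.37 on the log2 scale. The protein-coding gene FRMD8, upstream of NEAT1, was at -0.18 ± 0.07 and was not called (adjusted p 0.084). With MS023 for 3 h against 15 min, where MALAT1 was called lower, 8 of the 29 were called higher and 0 lower, beside 7.65% and 4.4% of all genes. AP000769.3, whose midpoint lies between NEAT1 and MALAT1, was among them (0.78 ± 0.25, edgeR adjusted p 0.034). This gene was weakly counted, at 4.46 CPM with MS023 for 15 min. It was also higher with MS023 for 3 h against untreated cells (0.82 ± 0.24, adjusted p 0.03). Of the 29 genes, 13 were called in none of the 16 comparisons. Dex averaged over the inhibitors gave 1 higher (TIGD3, 0.68) and 7 lower, beside 6.46% and 6.07% of all genes. The lower ones were SSSCA1-AS1 (-0.62), PGAM1P8 (-0.61), MAP3K11 (-0.51), SSSCA1 (-0.47), AP001362.2 (-0.44), DPF2 (-0.36) and CAPN1 (-0.22). Without the GSK591 and Dex library that stood apart, 2 of 30 tested neighbours were called higher (TIGD3 and CDC42EP2) and 5 lower, beside 5.8% and 4.19% of all genes. AP001362.2 and CAPN1 lost their calls, and 6 genes were called in both. The annotated exons of SSSCA1 overlap those of FAM89B, so the split of reads between these genes is uncertain. The same holds for AP003068.2 with CAPN1, CDC42EP2 with AP000944.2, and AP001362.2 with RELA.

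**Figure D5:**
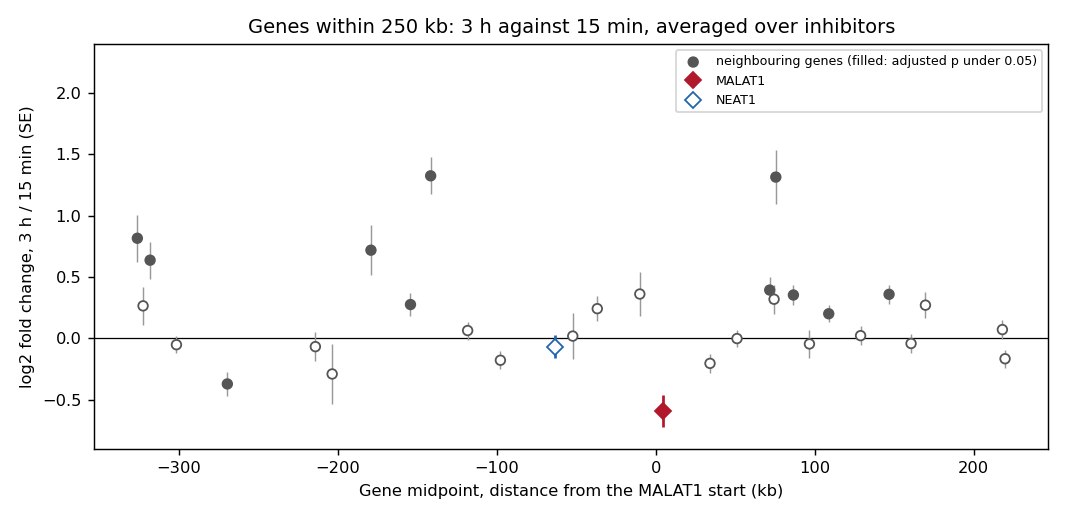
edgeR log2 fold change (bars: SE) of 3 h against 15 min, averaged over the inhibitors, for the 29 tested genes within 250 kb and for MALAT1 (red) and NEAT1 (blue), by distance of the gene's midpoint from the MALAT1 start in kb; filled symbols had an adjusted p under 0.05. MALAT1 lies lowest at -0.59, whereas 10 neighbours rose and 1 fell.

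Proteins of paraspeckles, the bodies that NEAT1 RNA builds, were examined as genes of 2 lists. Protein levels were not measured. Of 10 genes for core paraspeckle proteins, 2 were lower and 0 higher at 3 h against 15 min averaged over the inhibitors. This stood beside 8% and 10.1% of all genes (list median -0.07, all genes -0.01). The lower genes included RBM14 (-0.27 ± 0.07, edgeR adjusted p 0.0066), which encodes a paraspeckle protein that binds RNA. The scaffold partners NONO and SFPQ, at 47.6 ± 2.0 and 93.1 ± 1.5 CPM in untreated cells (SD, n = 2), were not called in that averaged comparison. Of 16 genes for other paraspeckle proteins, 6 were lower and 0 higher (list median -0.10). The named ones were RBM12 (-0.55 ± 0.09, adjusted p 1.2e-05), the cold-induced RNA-binding protein RBM3 (-0.43 ± 0.08, adjusted p 8.3e-05) and HNRNPA1 (-0.30 ± 0.07, adjusted p 0.0018). Against untreated cells RBM3 was lower by 0.74 with GSK591 for 3 h (log2 fold change -0.74; 3.79% of all genes lower) and by 0.51 with MS023 for 3 h (-0.51). NEAT1 itself was not called in any of these comparisons.

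Nuclear speckle proteins reside in the bodies where MALAT1 RNA gathers. Of 12 genes for such proteins, 4 were lower and 0 higher at 3 h against 15 min averaged over the inhibitors. This stood beside 8% and 10.1% of all genes (list median -0.16). The lower genes were PNN (-0.49 ± 0.10, edgeR adjusted p 0.00027), the speckle scaffold gene SRRM2 (-0.42 ± 0.07, adjusted p 2.3e-05), and the splicing factor genes TRA2B (-0.26 ± 0.08, adjusted p 0.013) and SRSF7 (-0.21 ± 0.07, adjusted p 0.035). None of the 12 was called in at least 2 of the 6 comparisons against untreated cells. PNN was called lower with MS023 for 3 h (-0.59 ± 0.14, adjusted p 0.0035) and SRRM2 with GSK591 for 3 h (-0.35 ± 0.10, adjusted p 0.017). These 4 genes were picked out after their values were seen.

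Of 14 genes that process or guard the 3′ ends of the members (RNase P, RNase Z and METTL16), 13 were tested, and 1 rose and 1 fell in the averaged comparison of times, beside 10.1% and 8% of all genes (list median -0.03, all genes -0.01). RPP14, an RNase P protein, was higher by 0.38 ± 0.12 (adjusted p 0.026), and METTL16, which binds the MALAT1 triple helix, was lower at -0.26 ± 0.09 (adjusted p 0.026). RPPH1, the RNA of RNase P, was listed at 0 in all libraries and shares bases with another gene. Of 5 genes for factors known to act upstream of NEAT1, 2 were lower, beside 8% of all genes, while the list median was 0.03 against -0.01 over all genes. They were HIF1A (-0.31 ± 0.10, edgeR adjusted p 0.023) and EPAS1 (-0.21 ± 0.08, adjusted p 0.049).

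Other long noncoding RNAs moved in both directions at 3 h. Of 19 listed, 17 were tested, and 3 were higher and 4 lower in the averaged comparison of times, beside 10.1% and 8% of all genes (list median -0.01, as over all genes). CRNDE, raised in colorectal tumours, was higher by 0.79 ± 0.16 (adjusted p 0.00021), going from 8.40 to 14.0 CPM. LUCAT1, named for lung cancer, was lower at -0.50 ± 0.08 (adjusted p 1.3e-05), from 46.0 to 32.8 CPM. LINC-PINT was lower at -0.36 ± 0.08 (adjusted p 0.0012), and PVT1 at -0.29 ± 0.08 (adjusted p 0.0073). NORAD and KCNQ1OT1 were not called in that comparison. Against untreated cells LUCAT1 was lower with GSK591 for 3 h (-0.86 ± 0.11, adjusted p 4.1e-07) and with MS023 for 3 h (-0.67 ± 0.11, adjusted p 4.4e-05), from 55.3 CPM to 30.5 and 35.1 CPM. For MALAT1 the same comparisons gave -0.15 and -0.62.

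The authors' deposited tables of DESeq2 comparisons with the control call neither member. In the authors' deposited tables MALAT1 has its largest change with MS023 for 3 h, a log2 fold change of -0.71 (SE 0.386, p 0.067, adjusted p 0.47). NEAT1 in the authors' deposited tables runs from -0.12 with MS023 for 3 h to 0.09 with GSK591 and Dex, with a standard error of 0.123 in each.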

How the data were processed

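Read counts per gene were deposited by the authors as 1 table of 58780 genes and 14 libraries, made with featureCounts 2.0.1 on hg38, per the submitters' processing notes. The aligner, strand setting and treatment of duplicates are not given in the sources used here. Separate tables deposited by the authors hold DESeq2 comparisons with the control: log2 fold changes and their standard errors, p-values, a test statistic (a score) and each gene's mean signal, per the file headers. All 58780 identifiers matched GENCODE 29 (GRCh38).

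Counts were tested with edgeR 4.0.16 (R 4.3.3; quasi-likelihood, TMM scaling, edgeR's expression filter, 21910 genes tested) in 1 fit of 7 groups, with 7 residual degrees of freedom, and Benjamini-Hochberg adjustment within each of 16 comparisons. No spike-in was used here, so changes are relative to the bulk of genes. In bulk libraries, fewer transcribing cells and less transcription per cell cannot be told apart. On simulated data for MS023 3 h against untreated, 95% of 200 genes changed by 1 on the log2 scale were called, with 15 unchanged genes called among 21422 tested. The simulation used edgeR's own spread estimates and a larger change than that of MALAT1. It therefore does not gauge how reliable the calls of the members are. Alternatives were DESeq2 1.42.0, other scalings, no filter, fewer groups, a replicate block, and leaving out each library. The members and gene lists were chosen with earlier results of these data known. Named genes were those of closest pattern and list members called in at least 2 of 6 comparisons against untreated cells (at most 3 a list). Also named were the 3 highest noncoding RNAs by mean CPM, the highest per kilobase, and called or overlapping neighbours within 250 kb. Some genes of these lists are not reported here.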

Additional observations from a re-analysis of the deposited data

How the results depend on the processing

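Over the alternatives run, NEAT1 was called in none, with an unadjusted p under 0.05 in 4, and MALAT1 kept its averaged fall from 15 min to 3 h in all (log2 -0.65 to -0.54, adjusted p 2.3e-15 to 0.049; -0.78 to -0.45 without 1 library). The MALAT1 call with MS023 for 3 h against untreated cells was lost with DESeq2 (-0.62) and with robust spread moderation, added after seeing the data (-0.62), and without any 1 of the 4 libraries compared (-0.70 to -0.51, adjusted p 0.075 to 0.29). Its call with MS023 for 3 h against 15 min was lost with DESeq2 (-0.60), with robust moderation (-0.61) and with nuclear library size alone (-0.49, adjusted p 0.093). It was also lost without MS023 15 min replicate 2 or either MS023 3 h library (-0.72 to -0.48 over all libraries left out). Without a count filter, MALAT1 was also called for GSK591 15 min against untreated (0.40), GSK591 3 h against 15 min (-0.55), GSK591 against MS023 at 15 min (0.42) and at 3 h (0.48), and GSK591 with Dex against untreated (0.39). With only the groups compared in the fit, GSK591 15 min against untreated was called (0.42). GSK591 3 h against 15 min ran from -0.94, called without GSK591 3 h replicate 1, to -0.28. GSK591 with Dex against untreated ran from -0.023, without the library that stood apart, to 0.76, called without the other replicate. The cause of these differences was not tested.

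Same-numbered replicates deviated together at most weakly, and in some pairs of groups only (correlations of -0.14 to 0.26, median 0.02, over 21 pairs of groups, 7 of them over 0.1). With replicate number as a block, MALAT1 was lower with MS023 for 3 h against untreated by 0.62 (-0.62, adjusted p 0.029), against 15 min (-0.60, adjusted p 0.024) and averaged (-0.58, adjusted p 0.0012), so no call of a member changed. The ratio of MALAT1 to NEAT1 counts gave p = 0.11 for time in an exact permutation within replicate numbers, and -0.69 to -0.43 without 1 library. DESeq2 called fewer genes than edgeR: 908 against 1672 for MS023 3 h against untreated, 1432 against 2640 for MS023 3 h against 15 min, and 2213 against 3974 for the averaged comparison. Scaling by library size alone put the median of all genes at -0.16, against -0.01 with TMM, for MS023 3 h against 15 min, where MALAT1 was at -0.77.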
